A study of Mus musculus with 4 samples.

Results

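The lysyl oxidases and the enzymes and chaperones that modify, fold and trim collagen were followed in mouse embryonic stem cells (mESCs) with and without Haspin, the kinase that phosphorylates histone H3 at Thr3 in mitosis. The 10 genes were taken by their symbol from a table of 55401 genes: Lox, Loxl1, Loxl2, Loxl3, Plod1, Plod2, P4ha2, Serpinh1, Pcolce and Bmp1. Each symbol had 1 row, and all 10 passed the filter on low counts, as did 15580 genes in all. RNA-seq had been performed on 2 libraries of WT E14 cells and 2 libraries of Haspin-KO E14 cells, grown without further treatment in serum medium with LIF and 2i. E14 is an established mESC line. The Haspin-KO cells were clones made with CRISPR/Cas9 and a pair of gRNAs, and the paper describes a pair of such lines without saying which of them each library came from. The cells were passaged on mouse embryonic fibroblasts (MEFs) and moved to gelatin for assays, and the surface used before RNA extraction is not given in the sources used here. No source says whether libraries of a group came from separate cultures, so the p values measure the spread between these libraries, which may be technical.

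Collagen is made in the endoplasmic reticulum as procollagen. Prolyl and lysyl hydroxylases modify its chains there, the chaperone Hsp47 (Serpinh1) holds the triple helix, and the protease Bmp1 with its enhancer Pcolce cuts off the C-terminal propeptide outside the cell. Lysyl oxidases then oxidize lysines of collagen and elastin, and the products form the covalent crosslinks that stiffen the matrix. Fibroblasts are rich in all of these steps, whereas mESCs are known mainly for basement membrane collagen.

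All 4 libraries carried mESC transcripts. The 8 mESC markers, among them Pou5f1 and Nanog, summed to between 5802 and 6367 CPM per library. Of these, 0 were called by edgeR or DESeq2, and 0 by edgeR with p left unadjusted and the fold limit kept. Klf4 and Dppa5a differed most, with log2 fold changes of -0.29 and -0.21 (adjusted p = 0.0604 and 0.12 from edgeR). The Haspin-KO pair lay below the WT pair for 3 of the 8 (Klf4, Dppa5a and Pou5f1), against 26.9% of all tested genes. It lay above for 1, Tfcp2l1. Of the 8 log2 fold changes, 6 were below 0, against 7890 of the 15580 tested genes. Library totals ranged from 14207828 to 21834847 counts, with both WT totals above both Haspin-KO totals. Haspin had 875 and 619 counts in WT and 149 and 209 in Haspin-KO, a log2 fold change of -1.60 ± 0.16 (SE, the standard error of the fit, adjusted p = 0.00154 from edgeR). Levels below are CPM (counts scaled to a common library size after TMM normalization) when 1 gene is compared between libraries, and deposited FPKM (scaled to exonic length and library total) when genes are compared with each other. A gene was called when its Benjamini-Hochberg adjusted p over all tested genes was under 0.05 and its fold change over 2.

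Stretches of coding sequence from Loxl1, Loxl2 and Loxl3 are shown because they encode the copper site that defines the enzymes among which the called members were found. The capitals mark the 3 codons of the histidines that bind copper. Each stretch has 60 bases in GENCODE M21 transcripts of GRCm38 (mm10), is read 5′ to 3′ on the coding strand, and is split by 1 intron in the genome.
Loxl1: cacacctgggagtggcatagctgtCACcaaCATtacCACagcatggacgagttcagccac
Loxl2: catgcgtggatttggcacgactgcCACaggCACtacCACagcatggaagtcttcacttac
Loxl3: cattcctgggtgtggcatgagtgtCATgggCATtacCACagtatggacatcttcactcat
The Loxl1 stretch spans chr9:58293699-58294387 on the minus strand, from exon 3 to exon 4 of 7. The Loxl2 stretch spans chr14:69682310-69689058 on the plus strand, and the Loxl3 stretch spans chr6:83049989-83050146 on the plus strand, both from exon 10 to exon 11 of 14. The Loxl2 and Loxl3 stretches shared 75.0% of their bases, against 66.7% for Loxl1 and Loxl2 and 71.7% for Loxl1 and Loxl3.

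Between members, shared sequence was negligible. Of the 31-base words in the transcripts of each member, at most 2 also occurred in another member, and these were shared by Lox and Loxl1. Loxl2 was the exception towards other genes. Of its 2298 coding words, 2109 (91.8%) were also present in Gm21451, an annotated pseudogene on the same chromosome (chr14:69390854-69480287). Gm21451 had 0 counts in every library, so that adding its counts left Loxl2 unchanged. The copper-site stretch shown for Loxl2 also occurs in Gm21451. How reads that map to both places were counted is not given in the sources used here, so the level of Loxl2 per length is uncertain. For the other 9 members, at most 0.0558% of the coding words occurred in another gene.

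The lysyl oxidases Lox, Loxl1 and Loxl2 were the members called lower in Haspin-KO cells. Since the RNA came from whole cultures, fewer cells of a type and less RNA per cell cannot be told apart. The log2 fold changes of all 7 tested fibroblast markers, given further on, were also below 0. Of the 10 members, 3 were called lower and 0 higher, against 0.501% of all tested genes called lower and 0.327% called higher. The same counts of 3 and 0 were obtained from edgeR when the p was left unadjusted, and DESeq2 called 2 lower (Lox and Loxl2) and 0 higher. The enzymes acting on procollagen inside the cell, and the pair that cuts its propeptide, were all among the 7 members not called. For 6 of 10 members, the WT pair lay wholly above the Haspin-KO pair, against 26.9% of all tested genes, and for Plod2 wholly below it. Of the 10 log2 fold changes, 8 were below 0, against 7890 of the 15580 tested genes. The median log2 fold change of the members was -0.46, also with Lox set at its bound, and that of all tested genes was -0.0039. The members, and the lists given below, were chosen with earlier results of these data known. The shares of all tested genes set beside them are therefore description and no test of the set.

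**Figure D1:**
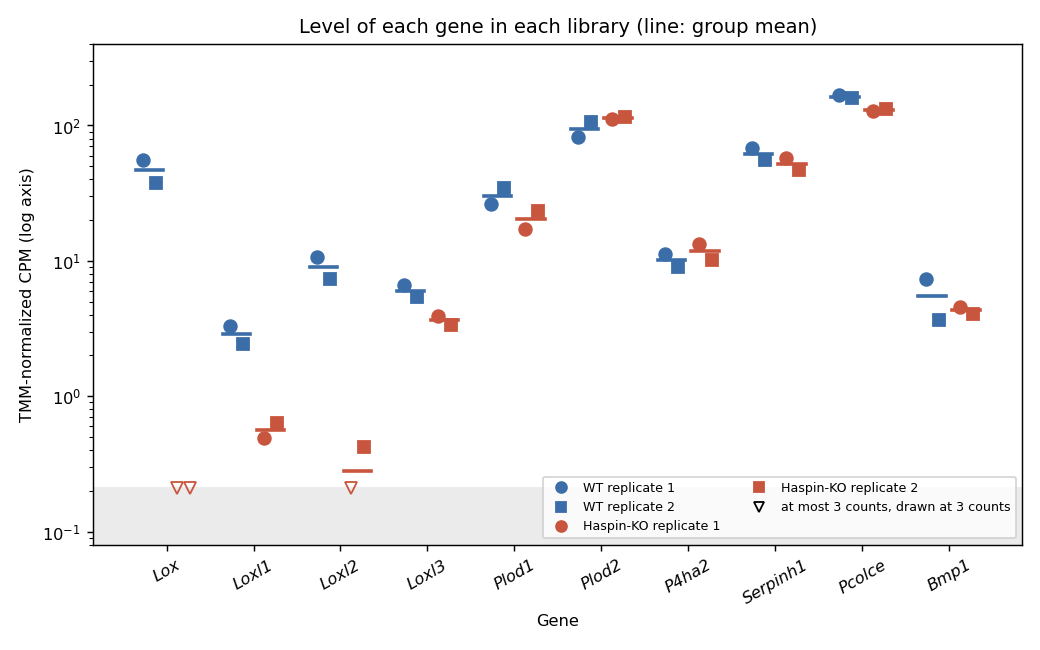
Level of each of the 10 genes in each library, as TMM-normalized CPM on a log axis; circles are replicate 1, squares replicate 2, short lines the group means, and open triangles libraries with at most 3 counts, drawn at the value of 3 counts, the top of the grey band. Lox has both Haspin-KO libraries at 0 counts, and Loxl1 and Loxl2 are far below WT. The other 7 genes have a fold change under 2.

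Lox (ENSMUSG00000024529, chromosome 18, from 52516067 to 52529867, minus strand) encodes the prototype lysyl oxidase, a secreted copper enzyme that crosslinks fibrillar collagen and elastin. Lox had 1215 and 657 counts in WT and 0 counts in both Haspin-KO libraries. These were 55.6 and 37.9 CPM in WT, a mean of 46.8 ± 12.5 (SD, n = 2 libraries). The groups did not overlap, and WT replicate 1 was the highest. Against a floor of 3 counts per library (0.21 CPM in Haspin-KO), which covers counting error only, the level of Lox was at least 223-fold lower in the Haspin-KO pair. Its Benjamini-Hochberg adjusted p, by the quasi-likelihood test of edgeR, was 2.1e-05, and it ranked 6 among all tested genes by p. The fitted log2 fold change of -12.63 ± 0.56 (SE) depends on edgeR's prior count and is no measure of the size. A gene on the opposite strand, Gm41724, overlaps the Lox locus and had 14, 6, 0 and 0 counts in the same libraries. The overlap covers 30 exonic bases of Lox, or 0.628%.

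Loxl2 (ENSMUSG00000034205, chromosome 14, from 69609068 to 69695834, plus strand) encodes a lysyl oxidase with scavenger receptor domains that acts on basement membrane and fibrillar collagens. Loxl2 had 235 and 128 counts in WT and 2 and 6 counts in Haspin-KO. The corresponding levels were 10.8 and 7.38 CPM in WT and 0.139 and 0.42 CPM in Haspin-KO. Both Haspin-KO libraries were far below both WT libraries, and Haspin-KO replicate 1 was under the floor. Loxl2 was 31.8-fold lower in Haspin-KO, a log2 fold change of -4.99 ± 0.42 (SE, 95% interval -5.93 to -4.06, adjusted p = 0.000565 from edgeR). The size rested on the few counts in Haspin-KO, since the fall was 62.6-fold without Haspin-KO replicate 2 and 21.3-fold without Haspin-KO replicate 1, with the call kept in both cases.

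Loxl1 (ENSMUSG00000032334, chromosome 9, from 58287738 to 58313186, minus strand) encodes the lysyl oxidase best known for its role in elastic fibres. Over the copper-site stretch, 93.3% of the bases of Loxl1 are also those of Lox. Loxl1 had 72 and 42 counts in WT and 7 and 9 in Haspin-KO, or 3.30 and 2.42 CPM against 0.487 and 0.63 CPM. Its groups did not overlap, and both Haspin-KO libraries were above the floor. Loxl1 was 5.10-fold lower in Haspin-KO, a log2 fold change of -2.35 ± 0.38 (SE, 95% interval -3.21 to -1.49, adjusted p = 0.0171 from edgeR). The call depended on having both WT libraries. Without WT replicate 1 the log2 fold change was -2.10 (adjusted p = 0.136 from edgeR), and without WT replicate 2 it was -2.54 (adjusted p = 0.0569), where the remaining WT library was assumed to vary like the Haspin-KO pair. DESeq2, the tool named in the paper's methods, gave Loxl1 a log2 fold change of -2.36 with an unadjusted p of 0.000296, and no adjusted p.

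Loxl3 (ENSMUSG00000000693, chromosome 6, from 83034173 to 83052562, plus strand) encodes the close relative of Loxl2 with the same domain layout. Loxl3 had 146 and 93 counts in WT and 56 and 48 in Haspin-KO, or 6.68 and 5.36 CPM against 3.90 and 3.36 CPM. The groups did not overlap, but Loxl3 was not called. Its log2 fold change was -0.73 ± 0.23 (SE, adjusted p = 0.115 from edgeR), with an unadjusted 95% interval from -1.24 to -0.23. The difference between its fold change and those of Lox, Loxl1 and Loxl2 was not tested. Of the exonic bases of Loxl3, 535 (11.6%) also lie in exons of other genes, and Htra2, on the opposite strand, had 450 to 872 counts per library. Whether the counting used strand is not given in the sources used here.

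The leading lysyl oxidase differed between the groups. In WT cells, Lox made up 71.6% and 69.9% of the FPKM summed over the 5 lysyl oxidases of the genome. In Haspin-KO cells Lox was at 0, and Loxl3 made up 74.1% and 64.9% of a much smaller sum. The summed FPKM was 16.3 and 11.3 in WT and 1.16 and 1.11 in Haspin-KO, a ratio of the means of 12.1. Without Lox, the sum over the other 4 was 4.61 and 3.40 in WT and 1.16 and 1.11 in Haspin-KO, a ratio of 3.53. Loxl4, the family member outside the set, contributed little, with 16 and 11 counts in WT and 7 in each Haspin-KO library (adjusted p = 0.598 from edgeR).

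**Figure D2:**
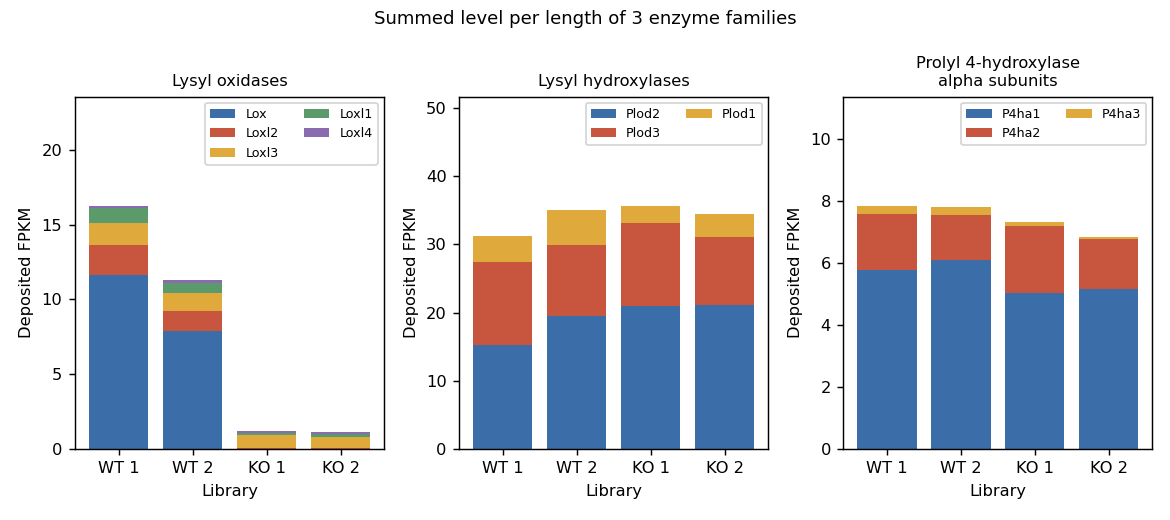
Deposited FPKM of the lysyl oxidases, the lysyl hydroxylases and the alpha subunits of prolyl 4-hydroxylase, stacked by gene for each library (WT 1 and 2, KO 1 and 2). The lysyl oxidase sum is 16.3 and 11.3 in WT against 1.16 and 1.11 in Haspin-KO, while the lysyl hydroxylase sums range from 31.3 to 35.7 and the prolyl 4-hydroxylase sums from 6.84 to 7.84.

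The lysyl hydroxylases prepare the lysines that are later crosslinked. Plod2 (ENSMUSG00000032374, chromosome 9, from 92542223 to 92608428, plus strand), which hydroxylates the telopeptides of collagen, had 82.5 and 105.6 CPM in WT and 112.0 and 114.9 CPM in Haspin-KO. It was the only member with both Haspin-KO libraries above both WT libraries. The log2 fold change of Plod2 was 0.27 ± 0.11 (SE, adjusted p = 0.207 from edgeR), with an unadjusted 95% interval from 0.023 to 0.52. The gap between the WT libraries was wider than that between the group means.

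Plod1 (ENSMUSG00000019055, chromosome 4, from 147909753 to 147936767, minus strand), which hydroxylates lysines of the triple helix, had 26.2 and 34.4 CPM in WT and 17.2 and 23.5 CPM in Haspin-KO. The groups did not overlap, and replicate 2 was the higher library in both of them. Its log2 fold change was -0.57 ± 0.17 (SE, adjusted p = 0.112 from edgeR), with an unadjusted interval from -0.96 to -0.18. Plod3, the third lysyl hydroxylase, had 54.5 and 47.7 CPM in WT and 54.0 and 45.7 CPM in Haspin-KO, with an interval from -0.29 to 0.21 on the log2 scale. The FPKM summed over the 3 genes was 31.3 and 35.0 in WT and 35.7 and 34.5 in Haspin-KO, and Plod2 led in every library with 49.0% to 61.1% of the sum.

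P4ha2 (ENSMUSG00000018906, chromosome 11, from 54100095 to 54131665, plus strand) encodes an alpha subunit of prolyl 4-hydroxylase, the enzyme whose hydroxyprolines stabilize the collagen helix. P4ha2 had 11.3 and 9.06 CPM in WT and 13.3 and 10.2 CPM in Haspin-KO, and the groups overlapped. The log2 fold change was 0.21 ± 0.18 (SE, adjusted p = 0.562 from edgeR), with a 95% interval from -0.21 to 0.62. P4ha1, the most abundant alpha subunit here, gave 68.8% to 78.2% of the FPKM of the 3 alpha subunits in each library. The interval of its log2 fold change ran from -0.48 to 0.035. P4hb, the beta subunit, had 623.9 to 679.2 CPM and an interval from -0.23 to 0.063.

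Serpinh1 (ENSMUSG00000070436, chromosome 7, from 99345376 to 99353239, minus strand) encodes Hsp47, a chaperone specific for collagen. It had 68.4 and 55.5 CPM in WT and 57.2 and 47.0 CPM in Haspin-KO. The groups overlapped, and replicate 1 was the higher library in each. The log2 fold change was -0.25 ± 0.13 (SE, adjusted p = 0.292 from edgeR), with a 95% interval from -0.54 to 0.033.

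Pcolce (ENSMUSG00000029718, chromosome 5, from 137605103 to 137613784, minus strand), the enhancer that speeds removal of the procollagen C-propeptide, was the most abundant member per length. It had 167.0 and 159.1 CPM in WT and 128.1 and 132.1 CPM in Haspin-KO. The groups did not overlap, and the libraries within each group were close. The log2 fold change was small, at -0.33 ± 0.074 (SE), and its adjusted p of 0.0529 from edgeR missed the threshold narrowly. With DESeq2 the adjusted p was 0.0291, but the fold change of 1.25 was under 2 with either tool.

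Bmp1 (ENSMUSG00000022098, chromosome 14, from 70474558 to 70520234, minus strand) encodes the procollagen C-proteinase, which also activates the Lox proenzyme. Bmp1 had 160 and 63 counts in WT and 66 and 58 in Haspin-KO, or 7.32 and 3.63 CPM against 4.60 and 4.06 CPM. WT replicate 1 stood above the other 3 libraries, and WT replicate 2 was the lowest of the 4. The log2 fold change was -0.36 ± 0.32 (SE, adjusted p = 0.555 from edgeR), and it turned to 0.25 without WT replicate 1. Bmp1 lies on the same chromosome as Loxl2.

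**Figure D3:**
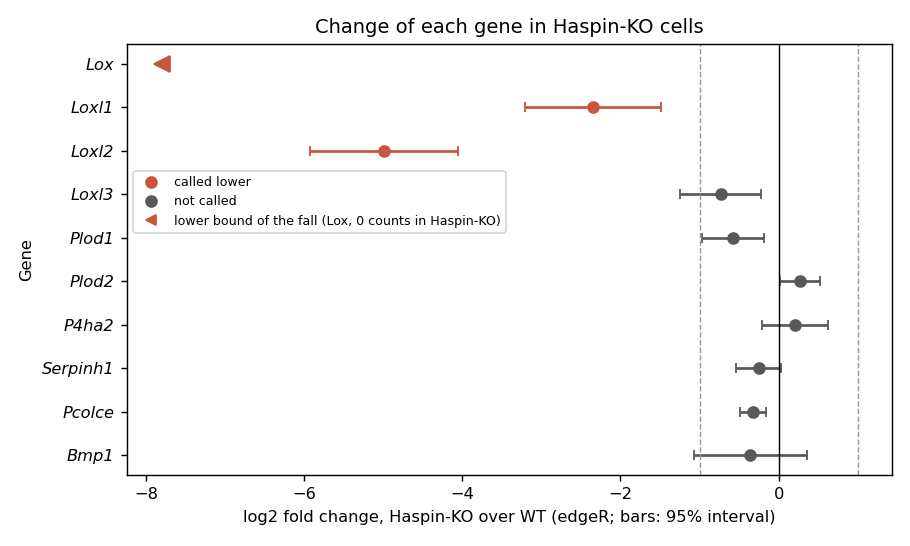
log2 fold change of each gene in Haspin-KO over WT from edgeR, with unadjusted 95% intervals; the arrow for Lox is a bound (at least 223-fold lower) and dashed lines mark a fold change of 2. Loxl1 and Loxl2 lie at -2.35 and -4.99, and the other 7 genes between -0.73 and 0.27.

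Ordered by mean FPKM in WT, the members ran from Pcolce (42.5) through Serpinh1 (25.3), Plod2 (17.4), Lox (9.77), Plod1 (4.46), Loxl2 (1.68), P4ha2 (1.63), Loxl3 (1.31) and Loxl1 (0.865) to Bmp1 (0.62). Neighbours overlapped in their libraries for Loxl2 with P4ha2, P4ha2 with Loxl3, and Loxl1 with Bmp1, and were separate elsewhere. In Haspin-KO the order began with Pcolce (34.0), Serpinh1 (21.4), Plod2 (21.0) and Plod1, followed by P4ha2 (1.89), where Serpinh1 and Plod2 overlapped. Lox went from the fourth place in WT to the last in Haspin-KO.

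The members also differed between the WT libraries. The ratio of WT replicate 1 to replicate 2 was 1.47 for Lox (95% counting interval 1.33 to 1.62), 1.46 for Loxl2 (1.17 to 1.82) and 1.36 for Loxl1 (0.917 to 2.04). It was 2.02 for Bmp1 (1.50 to 2.74). For Plod1 and Plod2 the direction was opposite, with ratios of 0.762 (0.678 to 0.856) and 0.782 (0.732 to 0.835). In Haspin-KO, the ratio was 0.733 for Plod1 (0.619 to 0.867), 1.22 for Serpinh1 (1.10 to 1.35) and 1.30 for P4ha2 (1.04 to 1.62), which were also the directions of these 3 genes in WT.

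**Figure D4:**
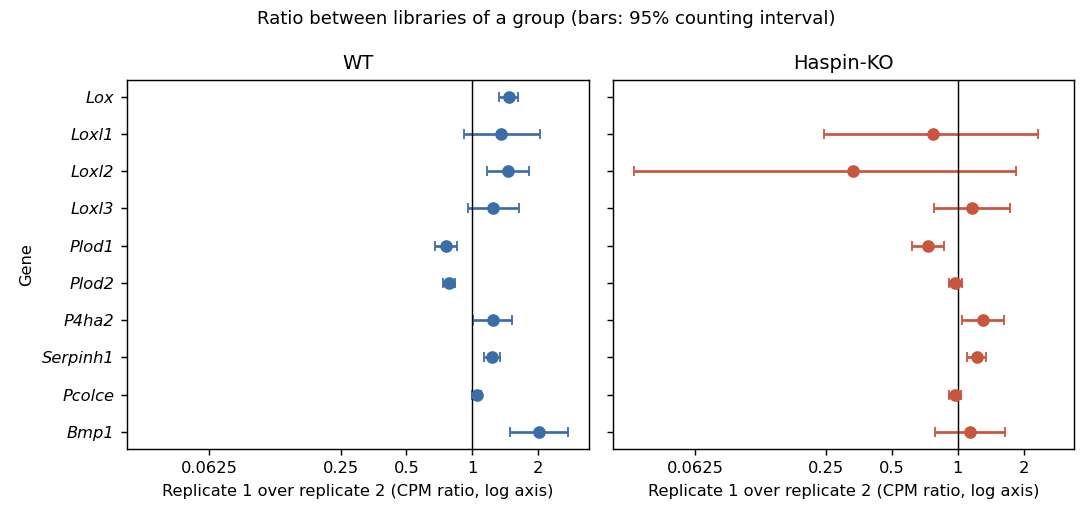
Ratio of replicate 1 to replicate 2 within WT and within Haspin-KO for each gene (TMM-normalized CPM, log axis), with exact 95% intervals that cover counting error only; Lox has no ratio in Haspin-KO. Lox and Loxl2 are 1.47 and 1.46 times higher in WT replicate 1, and Plod1 is lower in replicate 1 of both groups.

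The remaining collagen-modifying genes were taken from a list of 25, of which 23 were tested. It holds the other hydroxylases, the prolyl 3-hydroxylase complex, ER chaperones and glycosyltransferases, Loxl4, and other procollagen proteinases. Of these 23 genes, 0 were called lower and 0 higher by edgeR or by DESeq2, and P4ha3 alone was past a fold change of 2 at an unadjusted edgeR p under 0.05. The median log2 fold change was -0.18. The largest differences were those of P4ha3 (-1.36, adjusted p = 0.191), Adamts3 (0.85, adjusted p = 0.141), Adamts14 (0.55, adjusted p = 0.289) and P3h3 (-0.49, adjusted p = 0.272), all from edgeR. P4ha3 rests on 18, 14, 6 and 3 counts, and Adamts3 and Adamts14 are procollagen N-proteinases. Most differences were small but lay on the same side. For 14 of the 23 genes, both WT libraries were above the Haspin-KO pair, against 26.9% of all tested genes. Of the 23 log2 fold changes, 21 were below 0, against 7890 of the 15580 tested genes.

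The substrates behaved unevenly. Of 12 genes for fibrillar collagens and elastin, 10 were tested. Of these, 4 were called lower and 0 higher, against 0.501% and 0.327% of all tested genes. Both Haspin-KO libraries lay below both WT libraries for 6 of the 10, against 26.9% of all tested genes. The uncalled ones among these 6 were Col11a1 and Col11a2. For Col2a1 and Col27a1 the Haspin-KO pair lay above, as for 3945 of the 15580 tested genes. Col1a1 and Col1a2, the chains of type I collagen, were 24.4-fold and 54.2-fold lower, and Col5a2 was 7.53-fold lower. Against the floor of 3 counts per library, Col3a1 was 34.8-fold lower, with 2 and 1 counts in Haspin-KO. Col5a1, which pairs with Col5a2 in type V collagen, had a log2 fold change of -0.28 (adjusted p = 0.305 from edgeR). Elastin (Eln), the other substrate of the lysyl oxidases, had only 6, 1, 4 and 3 counts and was not tested.

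The genes whose profile over the 4 libraries was most like that of Lox were Col12a1, Tnc, Col1a2, Fbln2 and Col1a1. Likeness was the root mean square difference of the log2(CPM + 0.5) profiles centred on their means, and it ranged from 0.494 for Col12a1 to 1.16 for Col1a1. With 4 libraries, this measure is mostly the difference between the groups. All 5 genes encode matrix proteins. All were higher in WT replicate 1 than in replicate 2, as Lox was, but choosing genes by likeness to Lox favours this direction. Fbln2 had 37.0 and 24.7 CPM in WT and 1.32 and 0.56 CPM in Haspin-KO.

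The tested fibroblast markers all leaned lower in the same libraries as the lysyl oxidases, to unequal degrees. The summed level of the 12 markers was 108.8 and 85.3 CPM in WT, against 34.1 and 38.2 CPM in Haspin-KO, a ratio of the means of 2.68. Acta2, an actin of contractile cells, made up most of this difference. Without Acta2, the sums were 53.1 and 44.0 CPM against 31.1 and 32.3 CPM, a ratio of 1.53. Of the 7 tested, 3 were called lower and 0 higher, against 0.501% and 0.327% of all tested genes. The called ones were Postn (at least 29.3-fold lower), Prrx1 (8.64-fold lower against the floor of 3 counts) and Acta2 (10.8-fold lower). All 7 log2 fold changes were below 0, against 7890 of the 15580 tested genes, with a median of -0.85. Both Haspin-KO libraries lay below both WT libraries for 5 of the 7, against 26.9% of all tested genes, and above for 0. DESeq2 called Postn and Acta2 and gave Prrx1 no adjusted p. Postn, Dcn, Lum, Twist2, Fap and S100a4 had 0 counts in both Haspin-KO libraries, and in WT Dcn, Lum, Twist2 and Fap had at most 4 counts per library. Thy1, Twist1 and Fbn1 had log2 fold changes of -0.51, -0.18 and -0.10 and were not called. Pdgfrb had an adjusted p of 0.0392 from edgeR but a fold change of 1.80, under 2. The part of feeder fibroblasts or other mesenchymal cells in the fall of Lox, Loxl1 and Loxl2 was not tested.

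Markers of primitive and parietal endoderm, another cell type rich in collagen and Hsp47, were also summed. The sum was 474.4 and 439.3 CPM in WT, against 485.6 and 439.2 CPM in Haspin-KO. Sparc and Lama1, with WT means of 225.4 and 116.9 CPM, led this sum. Gata4, Gata6 and Sox17 had at most 5.31 CPM per library. Of 8 tested, 0 were called by edgeR or DESeq2, and 0 by edgeR with p left unadjusted and the fold limit kept. Col4a1, a chain of basement membrane collagen, had an adjusted p of 0.0359 from edgeR with both Haspin-KO libraries above both WT libraries, but its log2 fold change of 0.40 was under a fold of 2. Its partner chain Col4a2 had a log2 fold change of 0.33 (adjusted p = 0.172 from edgeR). In the other direction, Gata4 had the largest change of those tested, with a log2 fold change of -0.49 (adjusted p = 0.388 from edgeR). Its groups overlapped. Lama1 had a log2 fold change of -0.25 (adjusted p = 0.131 from edgeR), with both Haspin-KO libraries below both WT libraries. Of the 8 tested, 3 had a log2 fold change below 0. Of 12 genes of the hypoxia response, to which Lox, Plod2 and P4ha2 belong as known targets, 11 were tested and 0 were called by edgeR or DESeq2. Car9, the 1 gene past a fold change of 2 when p was left unadjusted, differed most among them, with a log2 fold change of -1.42 (adjusted p = 0.169 from edgeR) on 35, 14, 5 and 8 counts.

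**Figure D5:**
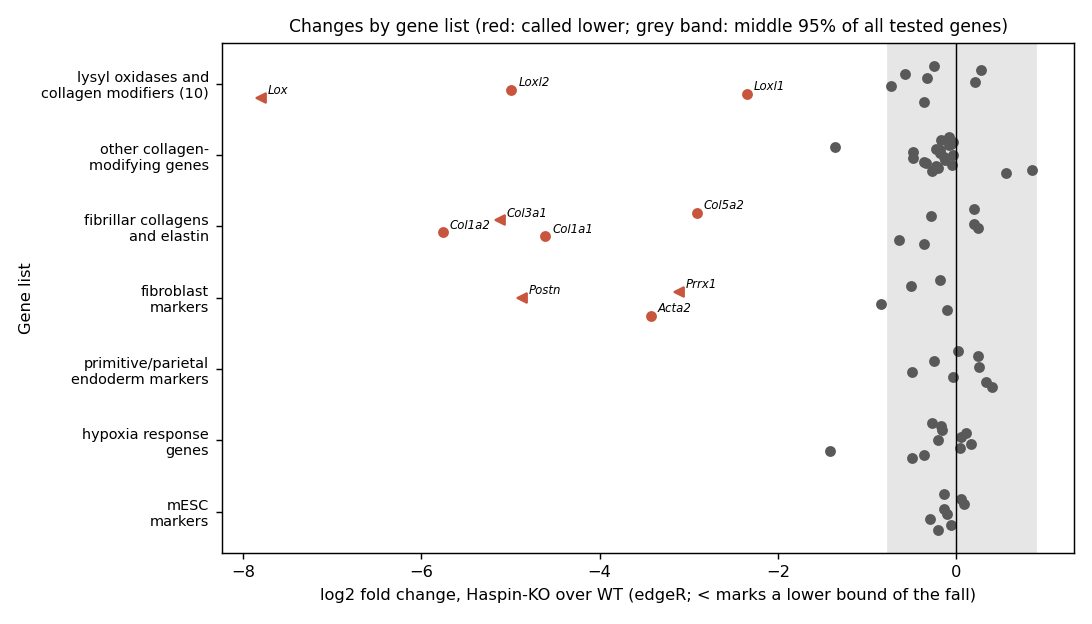
log2 fold changes in Haspin-KO over WT by gene list, with 1 point per tested gene; red points are genes called lower, arrows are values against the floor of 3 counts for genes with at most 3 counts in both Haspin-KO libraries, and the grey band holds the middle 95% of all tested genes (-0.77 to 0.89). The red points are Lox, Loxl1 and Loxl2, 4 fibrillar collagens and 3 fibroblast markers.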

How the data were processed

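RNA from WT and Haspin-KO E14 mESCs (2 libraries each) was made into SMARTer libraries. The authors trimmed reads with Cutadapt (1.9.1), mapped them to mm10 with HISAT2 (2.0.1), and deposited raw counts per gene and library. The submitters' processing notes also name HTSeq (0.6.1) and DESeq2. The authors also deposited FPKM values, which equalled counts divided by exonic length and library total within 0.0051 for 100% of values. Other columns of the table hold lengths, positions and annotations. Coordinates and exonic lengths of all 10 members were those of GENCODE M21.

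Counts were analysed with edgeR (4.0.16) in R (4.3.3): filter on low counts, TMM, quasi-likelihood test without a block, Benjamini-Hochberg adjustment over all 15580 tested genes. Standard errors are the log2 fold change over the square root of F, and 95% intervals use the fit's degrees of freedom. Alternatives were DESeq2 (1.42.0), limma (3.58.1) on log2(FPKM + 0.1) or log2(FPKM + 1), other scalings and filters, thinning, other thresholds, a replicate block and leaving out each library. Summing Loxl2 with Gm21451, and the marker sum without Acta2, were added after the data were seen. Scripts were tested on simulated data. Members and lists were chosen with earlier results of these data known. Named were all members, the called genes of each list or otherwise up to 4 with the largest change, Haspin, and the 5 genes most like Lox. Loxl4, Plod3, P4ha1, P4hb, Col5a1, Eln, Col4a1, Col4a2, Pdgfrb and the other uncalled markers were picked with their values already known.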

Additional observations from a re-analysis of the deposited data

How the results depend on the processing

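The falls of Lox and Loxl2 passed the thresholds with DESeq2, with library totals or the size factors of DESeq2 in edgeR, without a filter, after thinning, and without any 1 library. With limma on log2(FPKM + 0.1) and log2(FPKM + 1), 0 members, 0 fibrillar collagens, 0 fibroblast markers and 0 genes in all were called in either direction. The log2 values of these fits were -6.60 and -3.41 for Lox (adjusted p = 0.0697 and 0.0776), -3.51 and -1.33 for Loxl2, and -1.83 and -0.67 for Loxl1, and 3 and 2 members passed both thresholds when p was left unadjusted. A minimum of 10 counts in every library removed all 3 genes from the test, leaving 0 members, 2 fibrillar collagens, 1 fibroblast marker and 36 genes in all called lower, with 52 called higher. Without a filter, 140 genes were called lower and 125 higher, against 78 and 51, and DESeq2 called 45 lower and 47 higher, so that lower calls outnumbered higher ones under neither DESeq2 nor the minimum of 10 counts.

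With 1 library left out, 2 to 3 members, 2 to 4 fibroblast markers and 0 to 1 hypoxia genes were called lower, as were 37 to 150 of all genes, and 17 to 157 were called higher. The log2 fold change ranged from -2.55 to -2.10 for Loxl1, from -5.97 to -4.42 for Loxl2 and from -0.76 to 0.25 for Bmp1, the one member whose direction reversed. When replicate number entered as a block, 167 genes were called lower and 240 higher, and 1 hypoxia gene was called lower. The block changed no call among the members, but most of the uncalled ones were kept out by the fold limit alone. With the block, the adjusted p from edgeR was 1.2e-06 for Plod1, 9.1e-06 for Pcolce and 0.00038 for Plod2. It was 0.0053 for Loxl3 and 0.0087 for Serpinh1, and the fold changes of these genes were under 2. For P4ha2 and Bmp1 the adjusted p stayed above 0.05, at 0.306 and 0.280. The labels do not say that a replicate number marks a shared culture or day. The replicate differences of WT and Haspin-KO correlated with r = 0.338 across 15580 genes. Counts of at most 9 per library in Haspin-KO limit the precision for Loxl1 and Loxl2.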
